A study of Saccharomyces cerevisiae with 8 samples.

Results

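The vitamin B6 genes of Saccharomyces cerevisiae described here are the gene pairs SNZ1/SNO1, SNZ2/SNO2 and SNZ3/SNO3 and the permease gene TPN1, 7 of the 6546 features on the array. They were chosen by function, with earlier results of these arrays known, in which SNZ1 and SNO1 were low in the mutant disrupted at PDR5 and YOR1. The values of the comparison with wild type are therefore given for these genes as a description, and a threshold they passed there is not taken as a test of them. All 7 genes were measured, each by 2 probes, and all 14 probes were kept by the filter on dim probes.

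Total RNA of 3 haploid MATα strains was hybridised in pairs to 8 Agilent arrays with Cy3 and Cy5 channels on a single slide. The double mutant carries pdr5-∆1::hisG and yor1-1::hisG, the triple mutant carries both of these and pdr1::kanMX4, and wild type is SEY6210, which has all 3 genes. All strains share the markers of that GAL background: suc2-∆9 for invertase, his3-∆200 for histidine, trp1-∆901 for tryptophan, lys2-801 for lysine, ura3-52 for uracil and leu2-3,-112 for leucine. Cells were grown in YPD at 30 °C to an optical density of about 0.6. Of the arrays, 4 set the double mutant against wild type and 4 set the double mutant against the triple mutant. The double mutant carried Cy5 on arrays 1 and 3 of each comparison and Cy3 on arrays 2 and 4. As background, PDR5 and YOR1 encode ABC transporters that export drugs, and PDR1 encodes a transcription factor of pleiotropic drug resistance genes.

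Snz proteins are the synthase subunit and Sno proteins the glutaminase subunit of an enzyme that makes pyridoxal phosphate, the active form of vitamin B6, with the glutaminase supplying ammonia from glutamine. Each SNZ gene lies beside a SNO gene that is read from the opposite strand. In budding yeast SNZ1 and SNO1 are known for their expression in stationary phase and under amino acid limitation. The SNZ2/SNO2 and SNZ3/SNO3 pairs are close copies near chromosome ends, each beside a gene of the THI5 family of thiamine synthesis. Tpn1 is the plasma membrane permease that takes up pyridoxine.

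Before the results, the arrays and labels were checked. Median signals ran between 401.7 and 1300.3 intensity units in the Cy5 channel and between 116.9 and 1041.8 in the Cy3 channel. Saturated spots numbered 0, and array 2 of the triple-mutant comparison was the dimmest. Array 4 of the comparison with wild type stood apart, with an SD of 0.458 over the log2 ratios of all genes against 0.234 to 0.279 on the other 3 arrays. HIS3 and SUC2 were well above background in 0 of 32 measurements each, and both are deleted in this background. PDR5 had a log2 ratio of -1.46 in the double mutant over wild type (limma adjusted p = 0.000163), and YOR1 had 1.94 (adjusted p = 4.18e-06). YOR1 was thus higher in the strain that carries its disruption, and its log2 ratio on the other arrays was -1.67, labelled double over labelled triple mutant (adjusted p = 1.8e-05). Where the probes lie in the disrupted genes is not given in the files, so these values do not check the disruptions of PDR5 and YOR1. PDR1 went against the strain labels on the other arrays: the channel labelled double mutant held little of it, with log2 ratios (labelled double over labelled triple mutant) of -2.88, -1.12, -2.81 and -2.63 on arrays 1 to 4 (adjusted p = 0.00194). Directions are kept as labelled below, and strains on those arrays are named by their channel labels.

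SNZ1 (YMR096W), the synthase subunit gene, was lower in the double mutant on every array. Its normalized level was 8.05, 7.89, 7.85 and 9.09 log2 units in the double mutant on arrays 1 to 4, against 8.93, 9.05, 8.74 and 13.42 in wild type. The wild-type value of array 4 stands far above the other 3, and the groups overlap across arrays because the double mutant's highest value, also on array 4, exceeds every wild-type value on arrays 1 to 3. The log2 ratio, double mutant over wild type, was -0.88, -1.16, -0.89 and -4.34, a mean of -1.82 ± 1.69 (SD, n = 4), or 3.53-fold lower. Without array 4 the mean was -0.98 ± 0.157 (SD, n = 3), or 1.97-fold lower.

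SNO1 (YMR095C), the glutaminase subunit gene of the same pair, was lower in the double mutant on every array as well. Its level was 6.30, 6.05, 6.18 and 7.89 log2 units in the double mutant, against 6.97, 7.39, 7.47 and 11.93 in wild type. Again the wild-type channel of array 4 was the highest by far, and the double mutant's value on that array lay above wild type's on arrays 1 to 3, so the groups overlap across arrays. The log2 ratio was -0.67, -1.34, -1.29 and -4.04, a mean of -1.84 ± 1.5 (SD, n = 4), or 3.57-fold lower. Without array 4 it was -1.10 ± 0.375 (SD, n = 3), or 2.15-fold lower. In bulk RNA, a lower level in every cell and an absence from a share of the cells cannot be told apart.

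TPN1 (YGL186C), the pyridoxine permease gene, moved less. Its level was 9.04, 9.07, 8.83 and 9.01 log2 units in the double mutant, against 9.51, 9.28, 9.04 and 10.03 in wild type. The double mutant was the lower channel on each array, though its 2 highest values exceed the lowest of wild type. The log2 ratio was -0.46, -0.21, -0.21 and -1.02, a mean of -0.48 ± 0.383 (SD, n = 4), or 1.39-fold lower, and -0.29 ± 0.147 (SD, n = 3) without array 4.

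**Figure D1:**
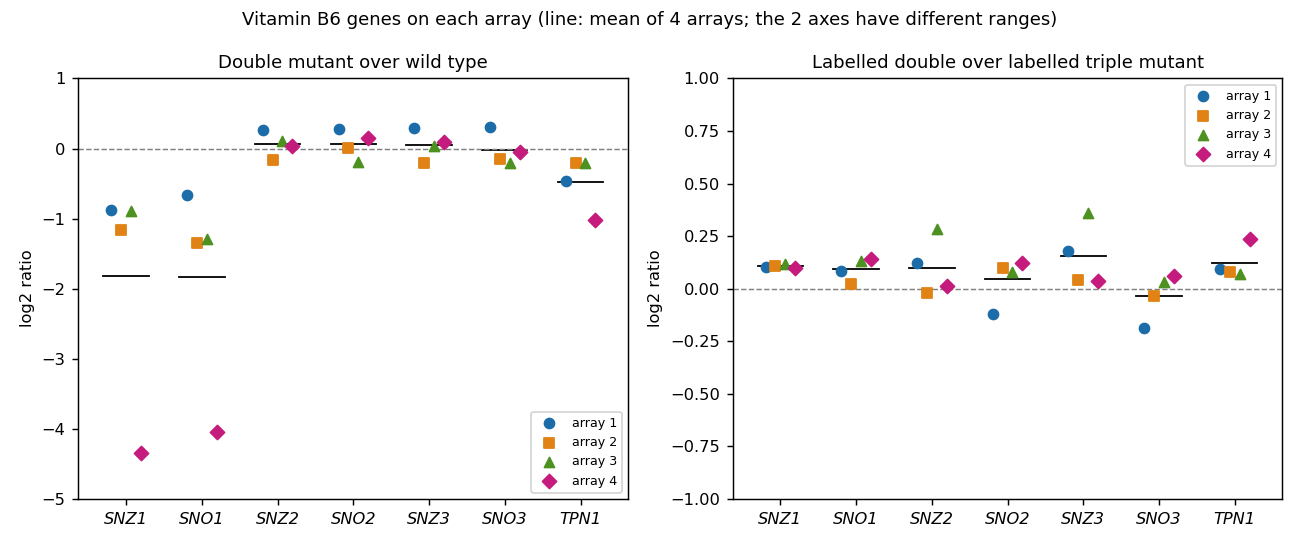
Log2 ratio of each vitamin B6 gene on each array, with the double mutant over wild type on the left and the labelled double over the labelled triple mutant on the right; points are arrays and lines the mean of 4 arrays, and the axes differ in range. SNZ1 and SNO1 lie below 0 on all 4 arrays against wild type, array 4 at -4.34 and -4.04.

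The subtelomeric pairs stayed near 0 in the same comparison. SNZ2 (YNL333W), a synthase subunit gene, had log2 ratios of 0.26, -0.16, 0.11 and 0.04 on arrays 1 to 4 (mean 0.06 ± 0.174, SD, n = 4). SNZ3 (YFL059W), its close copy, had 0.29, -0.21, 0.03 and 0.09 (mean 0.05 ± 0.207, SD, n = 4). Neither gene had 1 sign on all arrays, and array 4, where SNZ1 was extreme, was not their highest or lowest. Their glutaminase partners SNO2 (YNL334C), with 0.28, 0.01, -0.19 and 0.15 (mean 0.06 ± 0.203, SD, n = 4), and SNO3 (YFL060C), with 0.31, -0.15, -0.21 and -0.06 (mean -0.03 ± 0.233, SD, n = 4), changed sign between arrays too. All 4 of these means are smaller than their SD.

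Levels of the subtelomeric genes lay in a narrow band on these arrays. SNZ2 ran between 7.21 and 7.52 log2 units in the double mutant and between 7.24 and 7.37 in wild type, and SNZ3 between 7.40 and 7.71 in the double mutant and between 7.42 and 7.61 in wild type. SNO2 ran between 7.67 and 7.96 in the double mutant and between 7.52 and 8.14 in wild type, and SNO3 between 8.11 and 8.30 in the double mutant and between 7.996 and 8.32 in wild type. The ranges of both strains overlap for each of these 4 genes. All 32 of these measurements stood well above background.

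Of all 6465 genes tested in this comparison, 8.21% were called at a limma adjusted p below 0.05, 3.25% as higher and 4.97% as lower. Among the vitamin B6 genes 2 of 7, SNZ1 and SNO1, passed that threshold as lower and 0 as higher, which describes genes taken up for these values and tests nothing, with a median log2 ratio of -0.03 for the 7 genes and -0.01 for all genes. Of 18 alternative settings SNZ1 passed in 6, SNO1 in 9 and TPN1 in 6, so the count depends on the setting. Neither SNZ1 nor SNO1 passed without array 1 or array 3 of this comparison or without any 1 array of the other. The sign of SNZ1, SNO1 and TPN1 was negative in all 18 settings, with means between -2.27 and -0.997, between -2.80 and -1.13, and between -0.60 and -0.28. The settings re-use arrays on which each of the 4 single ratios of these genes was negative, so the constant sign tests nothing.

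The places of SNZ1 and SNO1 among all genes are a description, because both were taken up with their low values already known. SNZ1 lay at percentiles 0.17, 0.155, 0.31 and 0.0155 of all log2 ratios on arrays 1 to 4, and SNO1 at 0.557, 0.0619, 0.0464 and 0.031. Both were thus among the lowest 1% of genes on each array, array 4 included, while TPN1 lay at 2.26, 19.8, 13.6 and 3.56.

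**Figure D2:**
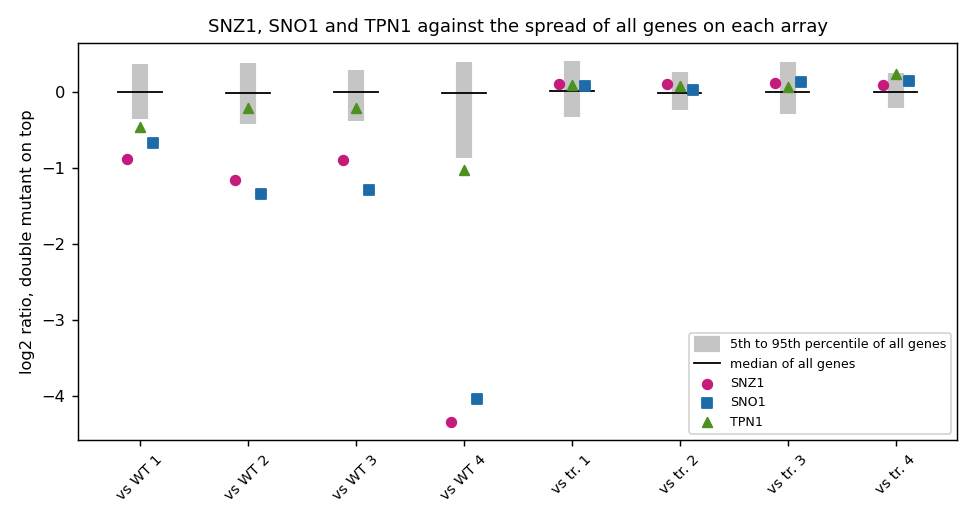
Log2 ratio of SNZ1, SNO1 and TPN1 on each array (points) over the 5th to 95th percentile of all genes (grey bars) and their median (line), with arrays of the double mutant against wild type on the left and against the labelled triple mutant on the right. SNZ1 and SNO1 lie below the grey bar on every array against wild type, and the bar of array 4 reaches lowest, to -0.86.

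The 2 channels of array 4 were set against arrays 1 to 3 to see which of them was unusual. In the wild-type channel SNO1 was 25.1-fold and SNZ1 22.9-fold above the mean of arrays 1 to 3, the highest and the second highest shift of 6450 genes, on a scale where all genes had an SD of 0.473 log2 units. In the double mutant's channel SNO1 was higher by 1.72 and SNZ1 by 1.16 log2 units, ranks 10 and 24, against an SD of 0.28. Both channels of that array thus held more SNZ1 and SNO1 signal than on arrays 1 to 3, the wild-type channel far more. TPN1 shifted by 0.75 log2 units in the wild-type channel and by 0.02 in the double mutant's. The subtelomeric genes shifted by between -0.39 and 0.08 in the wild-type channel. The amino acid synthesis genes that Gcn4 activates had a median shift of 0.04 in the double mutant's channel and 1.202 in the wild-type channel, so their median was high in the wild-type channel and near 0 in the other, where SNZ1 and SNO1 were also higher. The part of that shift in the ratios of SNZ1 and SNO1 was not tested beyond leaving the array out.

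**Figure D3:**
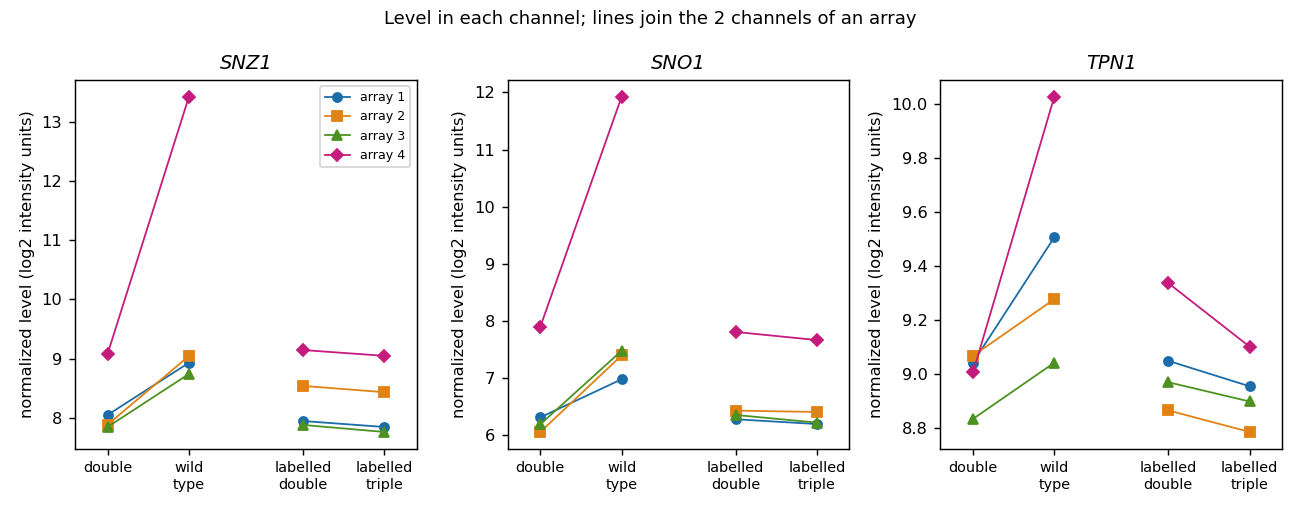
Normalized level (log2 intensity units) of SNZ1, SNO1 and TPN1 in each channel, with lines joining the channels of 1 array; axes differ between genes. Array 4 of the comparison with wild type has the highest wild-type level of all 3 genes, at 13.42, 11.93 and 10.03. Among the arrays against the labelled triple mutant, array 4 has the highest level of SNZ1 and SNO1 in each channel.

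The double mutant was also compared with the triple mutant, which asks what a further disruption of PDR1 does. SNZ1 had levels of 7.95, 8.54, 7.88 and 9.15 log2 units in the channel labelled double mutant on arrays 1 to 4, against 7.85, 8.44, 7.76 and 9.05 in the channel labelled triple mutant. The channels of an array lay within about the same small distance each time, while arrays differed among themselves by over 1 log2 unit. The log2 ratio, labelled double mutant over labelled triple mutant, was 0.10, 0.11, 0.12 and 0.10, a mean of 0.11 ± 0.00911 (SD, n = 4). It was not called (limma adjusted p = 0.954), with a 95% interval of the mean from -0.95 to 1.16 in the fit that shares its spread with the comparison with wild type. Without array 4 of that comparison the interval was -0.0052 to 0.22 (adjusted p = 0.244).

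SNO1 had levels of 6.27, 6.42, 6.34 and 7.80 log2 units in the channel labelled double mutant, against 6.19, 6.40, 6.21 and 7.66 in the channel labelled triple mutant. As for SNZ1, both channels of array 4 held the highest values, and on arrays 1 and 2 the Cy3 spot was not well above background. Its log2 ratio was 0.08, 0.02, 0.13 and 0.14 (mean 0.10 ± 0.0544, SD, n = 4; adjusted p = 0.952; interval -0.83 to 1.02). On array 4 of this comparison SNZ1 and SNO1 lay 1.02 and 1.46 log2 units above arrays 1 to 3 in the labelled double mutant's channel. In the labelled triple mutant's they lay 1.03 and 1.39 above them, so a higher level was shared by both channels and the ratio stayed small. Among 6423 genes SNZ1 ranked 303 and 327 in these channels and SNO1 34 and 83, where all genes had SDs of 0.437 and 0.451. SNZ3 shifted by 0.57 and 0.73 and SNO3 by 0.86 and 0.74, and both were dim on array 2. The Gcn4 list's median shifted there by 0.17 and 0.15 in these channels.

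The permease gene TPN1 had levels of 9.05, 8.87, 8.97 and 9.34 log2 units in the channel labelled double mutant, against 8.95, 8.79, 8.90 and 9.10 in the channel labelled triple mutant. The channel labelled double mutant was the higher one on each array. The log2 ratio was 0.09, 0.08, 0.07 and 0.24 (mean 0.12 ± 0.0774, SD, n = 4; adjusted p = 0.75; interval -0.16 to 0.40).

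Of the subtelomeric genes, SNZ3 had the highest mean in this comparison, with log2 ratios of 0.18, 0.04, 0.36 and 0.04 (mean 0.15 ± 0.153, SD, n = 4; adjusted p = 0.342). SNZ2 had 0.12, -0.02, 0.28 and 0.01 (mean 0.10 ± 0.137, SD, n = 4; adjusted p = 0.465), with array 3 the highest for both genes. Both were higher on arrays 1 and 3, with Cy5 on the labelled double mutant, than on arrays 2 and 4, with Cy3. Over all genes, arrays of this comparison correlated at 0.733 to 0.79 in the same dye orientation and at -0.0701 to 0.354 in the opposite one. The part of the dye in the SNZ2 and SNZ3 values was not tested. The partners of SNZ2 and SNZ3 moved less: SNO2 had a mean of 0.05 ± 0.111 and SNO3 a mean of -0.03 ± 0.111 (SD, n = 4 each; adjusted p = 0.873 and 0.921). The intervals of the mean were -0.0005 to 0.31 for SNZ3, -0.03 to 0.22 for SNZ2, -0.13 to 0.22 for SNO2 and -0.23 to 0.17 for SNO3. On array 2 the used probes of SNZ3 and SNO3 were not well above background in either channel, with 6.33 log2 units in the channel labelled double mutant and 6.29 in the channel labelled triple mutant for SNZ3, and with 5.99 in the channel labelled double mutant and 6.03 in the channel labelled triple mutant for SNO3. The other probe of SNZ3 and of SNO3 was well above background in all 16 channel measurements and gave means of 0.06 for SNZ3 and -0.01 for SNO3. The dimmer probe of SNZ2 gave 0.01, against 0.10 for the probe used, so the means of SNZ2 and SNZ3 depend on the probe.

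No vitamin B6 gene was called in this comparison, 0 of 7, where 1.59% of all 6465 genes were called by limma (1.05% higher, 0.541% lower) and 946 genes had an unadjusted p below 0.05. The median of the 7 log2 ratios was 0.10, against a median that rounds to 0.00 over all genes. In a fit to these 4 arrays alone SNZ3 was called (adjusted p = 0.0361), together with 19.3% of all genes, while SNZ1 and TPN1 had adjusted p-values of 0.0797 and 0.0739. With arrays weighted by quality SNZ2 (adjusted p = 0.0148) and SNZ3 (adjusted p = 0.00514) were called, among 2055 genes in all. Read with the sign turned, as the PDR1 values would have the labels, the means become -0.11 for SNZ1, -0.10 for SNO1, -0.10 for SNZ2, -0.05 for SNO2, -0.15 for SNZ3, 0.03 for SNO3 and -0.12 for TPN1.

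A ratio of the triple mutant over wild type was formed from both comparisons, which share the double mutant. As labelled, the log2 ratio of the triple mutant over wild type came to -1.92 for SNZ1, -1.93 for SNO1 and -0.60 for TPN1, and with the sign of the second comparison turned to -1.71, -1.74 and -0.36. For SNZ2 and SNZ3 it was -0.04 and -0.10 as labelled and 0.16 and 0.20 with the sign turned, and SNO2 and SNO3 had 0.02 and 0.01 as labelled and 0.11 and -0.06 with the sign turned. The triple mutant was not hybridised with wild type on any array. Its values for SNZ1 and SNO1 are the means of the comparison with wild type (-1.82 and -1.84), shifted down or up by 0.11 and 0.10. A low value under either reading of the labels therefore follows from the arithmetic and tests nothing. Those means include the array that stood apart in the comparison with wild type, and without it they were -0.98 and -1.10. The sign for SNZ2, SNZ3 and SNO3 depends on the reading.

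Mean levels of SNZ1, SNO1 and TPN1 were highest in wild type, where array 4 raised them with values of 13.42, 11.93 and 10.03. Their wild-type medians were 8.99, 7.43 and 9.39, against 7.97, 6.24 and 9.02 in the double mutant on the same arrays. SNZ1 averaged 8.22 ± 0.584 log2 units in the double mutant and 10.04 ± 2.26 in wild type on the arrays they share (SD, n = 4 each). On the other arrays SNZ1 averaged 8.38 ± 0.591 in the channel labelled double mutant and 8.27 ± 0.597 in the channel labelled triple mutant. SNO1 averaged 6.61 ± 0.864 in the double mutant and 8.44 ± 2.34 in wild type, and 6.71 ± 0.73 in the channel labelled double mutant and 6.61 ± 0.703 in the channel labelled triple mutant. The 3 mutant channels of both genes differ by less than their SD. For TPN1 the double mutant averaged 8.99 ± 0.105 and wild type 9.46 ± 0.421 (SD, n = 4 each). The labelled double mutant averaged 9.06 ± 0.202 and the labelled triple mutant 8.94 ± 0.131 on the other arrays.

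The probes of the related genes were compared, since SNZ2 and SNZ3 are close copies and a probe of one may also bind the transcript of the other. Likeness was measured as the root mean square difference of the log2 ratios over the 8 arrays. The 2 probes of SNZ1 differed by 0.0539 and those of SNO1 by 0.0789, where the median over 6292 genes was 0.069. Between the genes of that pair the difference was 0.205, and at most 0.397 on 1 array. Both probes of SNZ1 and of SNO1 thus show the low value, and the dimmer probes, which the fit did not use, gave means against wild type of -1.79 for each gene and of -0.43 for TPN1.

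The first probes of SNZ2 and SNZ3 differed by 0.0712 and the second probes by 0.0578. Among 12751 probes compared with it, the first probe of SNZ3 was the nearest to the first probe of SNZ2, and the second probe of SNZ3 ranked 7 for the second probe of SNZ2. The 2 probes within SNZ2 differed by 0.128 and those within SNZ3 by 0.123, so same-numbered probes of the 2 genes were closer than the probes of either gene. For SNO2 and SNO3 the first probes differed by 0.109 and the second by 0.0774, while the probes within SNO2 differed by 0.0769 and those within SNO3 by 0.103. Separate transcripts that vary alike and probes that bind both transcripts cannot be told apart here, so these values are not resolved to single copies.

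**Figure D4:**
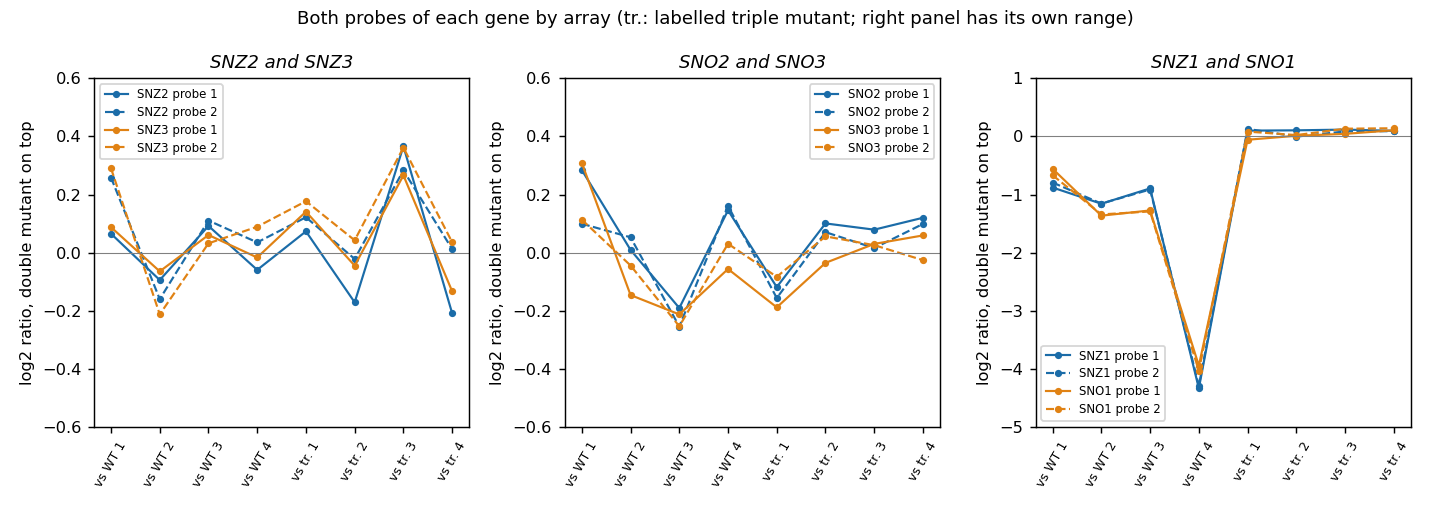
Log2 ratio of both probes of each gene on the 8 arrays, double mutant on top of wild type (vs WT) or of the labelled triple mutant (vs tr.); the right panel has a wider axis. Same-numbered probes of SNZ2 and SNZ3 run together (differences of 0.0712 and 0.0578), and the probes of SNZ1 and SNO1 all drop to about -4 on array 4 against wild type.

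The genes with profiles nearest to SNZ1 and SNO1 were found over the same 8 arrays among 6406 genes measured on all of them. ARG3, the ornithine carbamoyltransferase gene (difference 0.282), TMT1, a methyltransferase gene (0.311), ARO5 (0.39) and ATG41 (0.438) were among the nearest to SNZ1. The same 4 genes were among the nearest to SNO1, with ARG3 at 0.187, ARO5 at 0.368, TMT1 at 0.371 and ATG41 at 0.382, against a median over all genes of 1.65 for SNZ1 and 1.60 for SNO1. Each of the 4 had its lowest ratio on array 4 against wild type, between -3.85 and -3.12, and a mean between -1.72 and -1.38. That is also the array on which SNZ1 and SNO1 were lowest, and the likeness is a description.

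The other genes of vitamin B6 metabolism had a median log2 ratio of -0.01 against wild type. Of these, 0 of 5 were called, where 8.21% of all genes were called. At that share, 0 called among 5 genes says little about them. PDX3, the oxidase that makes pyridoxal phosphate, had the lowest mean, -0.35 (adjusted p = 0.183), from -0.15, -0.21, 0.06 and -1.09 on arrays 1 to 4. Its value again rested on array 4. BUD16, a putative pyridoxal kinase gene, had 0.03, BUD17, its relative, -0.04, YPR127W, a putative pyridoxine reductase, 0.19, and YBL036C, a protein of the pyridoxal phosphate-binding family, -0.01. Against the labelled triple mutant 0 of 5 were called, where 1.59% of all genes were, with values between -0.01 and 0.10.

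Thiamine genes were examined because THI5 family genes lie beside SNZ2 and SNZ3. In the double mutant over wild type 2 of the 19 genes measured passed as lower and 0 as higher, where 4.97% of all genes were called lower and 3.25% higher. The median log2 ratio was -0.02, against -0.01 for all genes. THI7, the thiamine transporter gene, fell by 0.57 on the log2 scale (-0.57, -0.66, -0.41 and -0.63 on arrays 1 to 4; adjusted p = 0.00166), and the acid phosphatase gene PHO3, which acts on thiamine phosphates, fell by 0.73 (adjusted p = 0.0131). The THI5 family had 0.01 for THI5, 0.00 for THI11, -0.02 for THI12 and -0.04 for THI13. These genes are near-identical copies, so their probes cannot be assigned to single genes with certainty. Against the labelled triple mutant 0 of 19 were called, where 1.59% of all genes were. THI7 had 0.26 there (adjusted p = 0.0771) and PHO3 0.60 (adjusted p = 0.0684).

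Enzymes that use pyridoxal phosphate were set beside the genes that make it. Against wild type 5 of the 38 genes measured passed as lower and 1 as higher, where 4.97% of all genes were called lower and 3.25% higher. The median log2 ratio was -0.18, against -0.01 for all genes. GCV2 of glycine cleavage (-1.08, adjusted p = 0.0236), BAT1, the mitochondrial branched-chain aminotransferase gene (-0.77, adjusted p = 0.0381), and SHM2 of serine and glycine conversion (-0.51, adjusted p = 0.0226) fell. The means of arrays 1 to 3 were -0.67, -0.50 and -0.36 for these 3 genes. ALT2, a relative of the alanine transaminase ALT1, rose by 0.41 (adjusted p = 0.00707). Of 18 alternative settings GCV2 passed in 13, BAT1 in 9, SHM2 in 12 and ALT2 in 15. Without array 4 of this comparison, 10 of the 38 were called lower and 2 higher. In that setting 446 of all 6465 genes were called lower and 379 higher, 12.8% in all. The comparison with the labelled triple mutant called 0 of 38, where 1.59% of all genes were called.

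The amino acid synthesis genes under Gcn4, measured for 41 genes and holding none of the 7, had 13 called lower and 0 called higher, beside 4.97% and 3.25% of all genes, with a median log2 ratio of -0.56. That median was -0.22, -0.38, -0.16 and -1.51 on arrays 1 to 4. ARG1 and ARG3 of arginine synthesis had the lowest means among those called, -2.40 and -1.72 (adjusted p = 0.00627 and 0.0224). Of the genes using pyridoxal phosphate 7 are also in this list, which is 18.4% of the 38 and 17.1% of the 41. Without array 4, 22 of the 41 were called lower and none higher, where 446 of all 6465 genes were called lower and 379 higher (12.8%). GCN4 itself, which encodes the activator, had a log2 ratio of -0.41 (adjusted p = 0.0126). The part of these genes in the SNZ1 and SNO1 values was not tested.

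Genes of stationary phase and stress, a state in which SNZ1 is known to be expressed, mostly had means below 0 against wild type. YGP1 was the exception, and the others ran from -0.80 for SPG4 to -0.005 for SPI1. Of 10 measured genes SPG4 fell by 0.80 against wild type (adjusted p = 0.0297). Its ratio was lowest on array 4, at -1.77, and the mean of arrays 1 to 3 was -0.48. SPG4 passed in 8 of 18 alternative settings. SIP18 fell by 0.48 (adjusted p = 0.00339), while YGP1, a cell wall glycoprotein gene, rose by 1.00 (adjusted p = 0.00289). The other 7 were not called, and the median was -0.27; 8.21% of all genes were called in either direction. Without array 4, 4 of the 10 were called lower and 1 higher, where 446 of all 6465 genes were called lower and 379 higher (12.8%). Against the labelled triple mutant YGP1 was lower in the channel labelled double mutant, by a log2 ratio of -0.99 (adjusted p = 0.00609). In that comparison 0 genes of this list were called higher, where 1.59% of all genes were called in either direction.

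**Figure D5:**
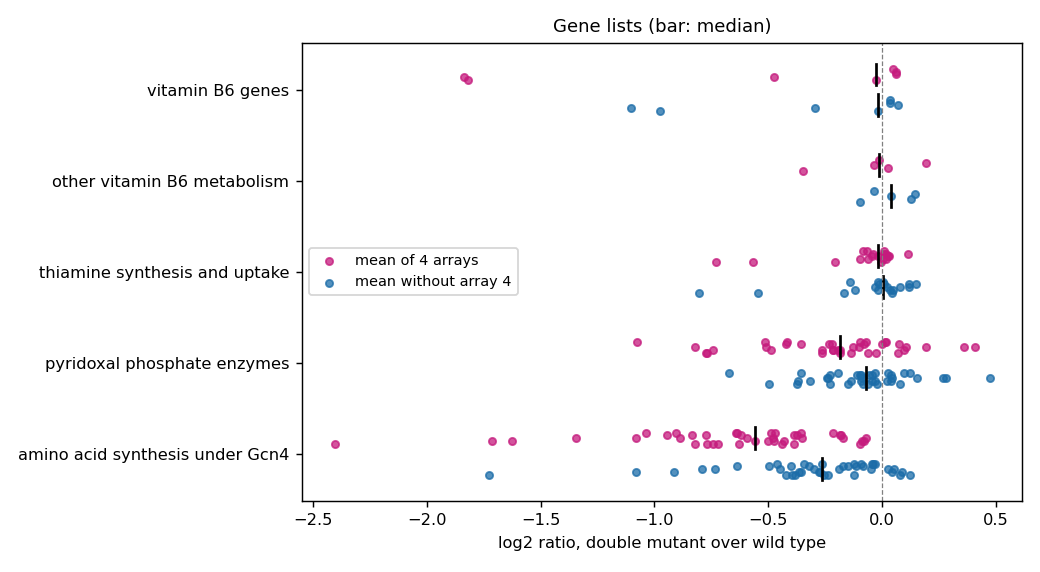
Log2 ratio, double mutant over wild type, of each gene (points) in the vitamin B6 genes and 4 further lists, as the mean of 4 arrays (upper row) and of arrays 1 to 3 (lower row), with the median as a bar. SNZ1 and SNO1 lie apart from the other 5 vitamin B6 genes with either mean, and the Gcn4 list has its median at -0.56 with all arrays.

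The genes next to each pair were read to see whether the low values extended to neighbours, with order taken from the reference annotation. Both genes of each SNZ/SNO pair are adjacent there. Beside SNO1/SNZ1 on chromosome XIII, the kinetochore gene CTF13 had a log2 ratio of 0.19 and MTG1, a mitochondrial GTPase gene, had -0.04 in the double mutant over wild type. YNL335W and THI12 beside SNO2/SNZ2 on chromosome XIV had -0.09 and -0.02, and YFL061W and THI5 beside SNO3/SNZ3 on chromosome VI had -0.07 and 0.01. Beside TPN1 on chromosome VII, COX4, a cytochrome c oxidase subunit gene, fell by 0.43 (adjusted p = 0.00389), and YGL185C had 0.13. Of these 8 neighbours COX4 was the 1 called, and it was called in the comparison with the labelled triple mutant as well (0.34, adjusted p = 0.023). Of all genes 8.21% were called against wild type and 1.59% against the labelled triple mutant. For the other 7 neighbours the smallest adjusted p was 0.0903 against wild type and 0.665 against the labelled triple mutant.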

How the data were processed

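Per the file headers, the authors used Agilent Feature Extraction 10.7.3.1. The deposited intensity columns used are the mean, local background and processed signal of every spot in both channels, and the other deposited columns used are 0 or 1 flags. Each of the 8 per-sample columns of the deposited table of normalized values was left out, because their names match no array's title or description. The files name no genome build and no probe sequences.

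Mean intensities were background-corrected by normexp (offset 50) and scaled by loess within arrays (limma 3.58.1, R 4.3.3). Weights of 536 control spots were 0, and outlier spots were set to missing. Of 13092 probes, 12872 were kept, those well above background in 4 or more of 16 channel measurements. The brighter probe stood for each of 6465 genes, and 81 features were dim. Names came from a reference table of locus tags for 5869 features. The limma model of the 8 arrays had 1 coefficient for each comparison and 1 for dye, and 5 residual degrees of freedom. A gene was called at a p below 0.05 after Benjamini-Hochberg adjustment over 6465 genes. Levels per channel came from loess followed by scaling of average intensities between arrays (Aquantile), and levels were not compared between genes.

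Nothing in the labels tells whether arrays hold RNA of separate cultures, so the p-values reflect only spread between arrays, which may be technical. The number of arrays limits the precision. The genes and lists were chosen with earlier results of these data known. Genes named are the 7 vitamin B6 genes, the 5 nearest profiles to SNZ1 and SNO1, up to 3 called genes per list and direction, all other vitamin B6 and THI5 family genes, neighbours and strain checks. A gene that this rule takes is not reported here. On simulated data with known changes the fit recovered 76.4% of log2 changes of 0.5 and 97.3% of changes of 1 in the comparison with wild type, with 7 unchanged genes called. For the triple-mutant comparison these were 79.8%, 97.3% and 15. These shares are over all genes and do not give the recovery for SNZ1 or SNO1. The intervals of SNZ1 and SNO1 in that comparison ran from -0.95 to 1.16 and from -0.83 to 1.02. Alternatives were the processed intensities, median centring, no filter, the mean over probes, no dye term, a dye term per comparison (chosen after seeing the data), the arrays of 1 comparison alone, a replicate block, averaged dye-swap pairs, quality weights and leaving out each array.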

Additional observations from a re-analysis of the deposited data

Results flagged for a closer look

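Each group of 4 or 8 values was searched for a single array far from the others, by the gap to the nearest value over the whole range. Of 35 groups 10 met the criterion, and chance flags about 1 in 20 groups. The groups share arrays and probes, so they are not independent.

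In the comparison of the double mutant with wild type, array 4 stood apart for the SNZ1 log2 ratio (-4.34), the SNZ1 wild-type level (13.42 log2 units) and the SNO1 wild-type level (11.93). On array 1 of that comparison the SNO3 wild-type level was the low value, at 7.996 log2 units. Of the triple-mutant arrays, array 4 had the highest SNO1 level in the channel labelled triple mutant (7.66). On the same array TPN1 had the highest log2 ratio, labelled double over labelled triple mutant (0.24). Its level there was the highest of the 8 channels labelled double mutant (9.34), which were pooled over both comparisons by label. Array 2 of that comparison, the dimmest of the 8, had the lowest levels of SNZ3 (6.33) and SNO3 (5.99) among channels labelled double mutant. It also had the lowest SNO3 level in the channel labelled triple mutant (6.03), and those spots were not well above background.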

How the results depend on the processing

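In the comparison with wild type 531 genes were called (210 higher, 321 lower). The count was 40 with processed intensities (31 higher, 9 lower), 54 with median centring (28 higher, 26 lower), 25 with the 4 arrays of the comparison alone and 277 with quality weights. Leaving out 1 array gave 203 to 825, with 203, 310 and 825 without arrays 1, 3 and 4, and with 332, 327 and 324 when array 2, 3 or 4 against the labelled triple mutant was left out. Against the labelled triple mutant 103 genes were called (68 higher, 35 lower). The count was 40 with processed intensities (14 higher, 26 lower), 21 with median centring (5 higher, 16 lower), 1247 with the 4 arrays alone, 26 with averaged dye-swap pairs and 2055 with quality weights. Leaving out 1 array gave 23 to 473, with 67 and 473 without arrays 3 and 4 of the comparison with wild type and 25, 37, 23 and 23 without arrays 1 to 4 of its own. With the replicate block the counts were 571 and 112. Same-numbered arrays had residual correlations between -0.69 and 0.02 (block correlation -0.257), and the labels do not pair them.

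Against the labelled triple mutant the sign of some uncalled genes turned. Leaving out 1 array gave -0.081 to 0.29 for SNZ1 (-0.081 without array 2, -0.078 without array 4), -0.096 to 0.27 for SNO1 (-0.049 without array 2, -0.096 without array 4) and -0.077 to 0.034 for SNO3 (0.034 without array 1). All 4 single-array ratios of SNZ1 and SNO1 are positive, and these negative values follow from the dye term shared with the other comparison. SNO3 had 0.094 with processed intensities, 0.28 with median centring and 0.0087 with quality weights.

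Among uncalled genes of the comparison with wild type, processed intensities turned PDR1 to -0.035, THI5 to -0.096, BUD16 to -0.086, BUD17 to 0.27 and THI11 to -0.0019. Median centring turned YNL335W to 0.033, YFL061W to 0.046 and THI13 to 0.11, the mean over probes turned THI5 to -0.0076, and quality weights turned BUD17 to 0.0036 and THI12 to 0.047. Leaving out 1 array gave -0.029 to 0.19 for PDR1, -0.051 to 0.095 for THI5, -0.045 to 0.10 for BUD16, -0.098 to 0.0097 for BUD17, -0.022 to 0.030 for THI11, -0.092 to 0.075 for THI12, -0.15 to 0.0053 for YNL335W and -0.066 to 0.056 for YBL036C. The cause was not tested. In 864 pairs of a tested gene and an alternative, which leave out the 7 vitamin B6 genes in the comparison with wild type, 98 lost a call and 12 gained one.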
